A study of Mus musculus with 4 samples.

Results

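The Notch pathway and its Hes genes were examined in mouse hippocampus at postnatal day 2. The group comprised 10 genes: the receptors Notch1, Notch2 and Notch3, the ligands Dll1, Dll3 and Jag1, and the targets or feedback genes Hes1, Hes5, Hey1 and Nrarp. Members were all probe sets that the platform annotation assigns to a single symbol among these, which gave 17 of 45037 probe sets, for 10 of 18193 named genes. Hippocampi labelled ZBTB20 knockout were compared with those of littermates labelled wildtype, here called control, to look for genes that depend on this zinc finger transcription factor in hippocampal development. There were 4 Affymetrix arrays of total RNA, 2 for each group, numbered replicate 1 and replicate 2 in each. No treatment, deletion or transgene shared by both groups was named, nor the strain, the part of the gene that was deleted, or how many animals went into an array. The p-values therefore measure the spread between these arrays, taken in whole or in part from probe sets of like brightness. That spread may be technical. Precision is limited by the number of arrays and, in the fit that does not take account of the replicate number, by a difference in signal scale between the replicate numbers.

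Notch receptors are single-pass membrane proteins that are cleaved when a Delta or Jagged ligand on a neighbouring cell binds them. The freed intracellular domain joins the DNA-binding protein RBPJ and switches on genes such as Hes1, Hes5, Hey1 and Nrarp. Hes and Hey proteins are basic helix-loop-helix repressors that hold back proneural genes, and in the developing hippocampus this keeps radial glia and other progenitors undifferentiated.

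The signals lay on different scales for the replicate numbers, so the knockout array was set against the control array within each number. The median signal was 142 (control) and 129.9 (knockout) in replicate 1, against 73.8 and 75.8 in replicate 2. A difference is given as log2(signal + 32.56) on the knockout array minus that on the control array, with replicate 1 first, and a ratio is of the deposited signals. The targeted gene did not separate the labels: of its 9 probe sets, 0 were lower on the knockout array in both replicate numbers, and 1443471_at had ratios of 0.488 and 2.08. Directions follow the labels as given. All 7 hippocampal markers looked for, among them Prox1, Emx2, Neurod6 and the targeted gene itself, had a probe set above the brightness filter. So did 12581 of all 18193 named genes, so passing it says little about the tissue. The replicate 1 arrays also carried liver transcripts: the signals of 6 liver genes (Alb, Apoa1, Fgb, Ambp, Ahsg and Apob) summed to 47757 in the control and 17096 in the knockout there, against 238 and 247 in replicate 2. Ttr was left out of this sum after its values were seen, since the choroid plexus makes it too, and Afp was below the filter.

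Hes5, at both of its probe sets, was lower on the knockout array in both replicate numbers. Jag1 was higher in both at its brightest probe set, while its other 2 were lower in replicate 1 and higher in replicate 2. Hes1 was the member with the widest difference in replicate 1 among those above the brightness filter. By the brightest probe set of each gene, 5 of 10 members were lower on the knockout array in both replicate numbers (Notch3, Dll1, Dll3, Hes1 and Hes5), 1 was higher in both (Jag1), and 4 had opposite signs (Notch1, Notch2, Hey1 and Nrarp). Over 12581 genes, 24% were lower in both, 22.4% higher in both, and 53.6% had opposite signs. Past log2 0.5 in both replicate numbers, 10 genes kept their direction (0.0795%) and 219 had opposite directions (1.74%). Differences wide in both replicate numbers thus mostly reversed their sign under these labels. The counts of members lower or higher in both rest on the labels as given, and the source of the reversal was not tested. The median difference of the members was -0.079 and -0.063, and that of all genes was -0.011 and -0.00063. In such tissue samples, fewer cells of a type and less RNA per cell cannot be told apart. Limma called 0 of the 16 member probe sets that passed the filter on brightness, and 0 of all 27022 tested (0%), at an adjusted p of 0.05. At an unadjusted p under 0.05 there were 5 probe sets (0.0185%), of which 0 were members. A limma fit that took the replicate number as a block called 0 as well (0%), with 330 (1.22%) at an unadjusted p under 0.05, of which 0 were members. For a single gene, an exact two-sided permutation of 2 against 2 arrays cannot give a p below 0.333.

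**Figure D1:**
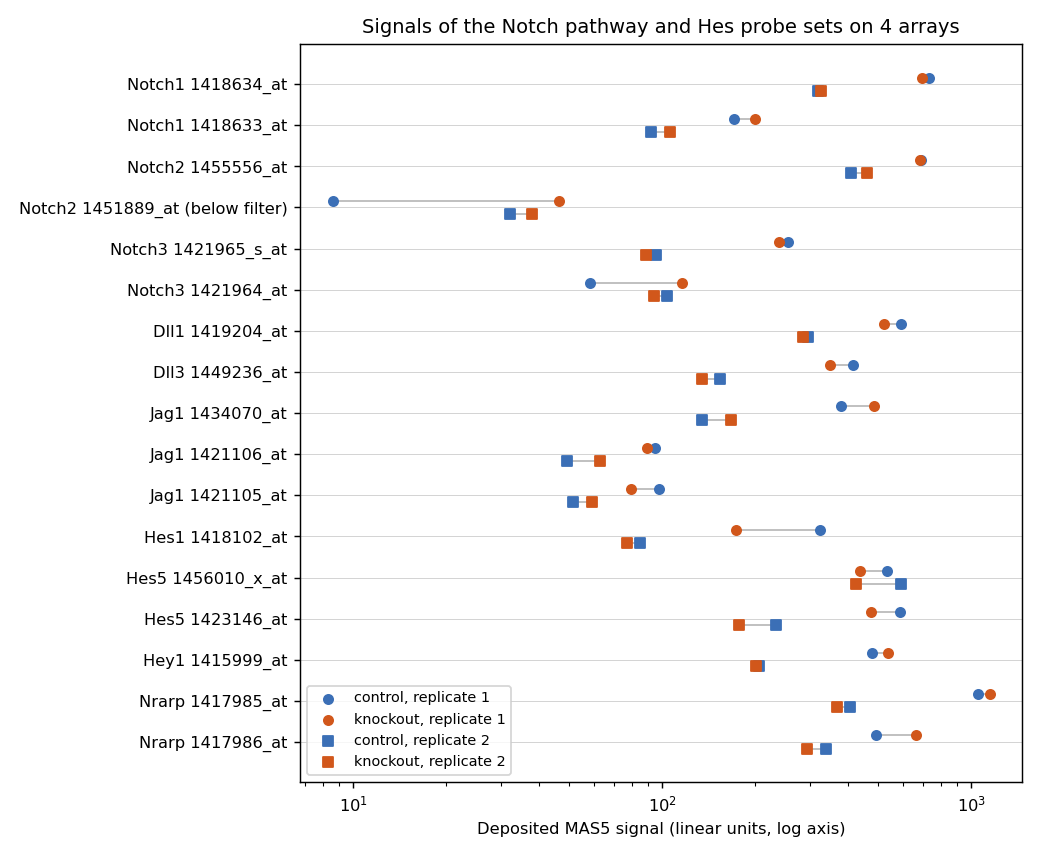
Deposited signal (log axis) of each of the 17 member probe sets on the 4 arrays, with circles for replicate 1, squares for replicate 2, blue for control and orange for knockout, and a grey line joining the arrays of a replicate number. For both Hes5 probe sets the orange point lies left of the blue one in both replicate numbers, and for Jag1 1434070_at it lies right of it in both.

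Hes5, a Notch-induced repressor in neural progenitors, was lower on the knockout array at both of its probe sets. Probe set 1456010_x_at read 533 in the control and 435 in the knockout of replicate 1, and 594 and 423 in replicate 2. As deposited, both knockout signals were below both control signals, as for 1.56% of the probe sets tested and for no other member probe set. The groups also separated at Notch2 1451889_at, below the filter, where both knockout signals were above both control signals. Divided by each array's trimmed mean, the signals of 1456010_x_at were 1.07 and 0.875 in replicate 1 and 3.77 and 2.72 in replicate 2, and the groups overlapped. Probe set 1423146_at read 588 and 475 in replicate 1 and 234 and 177 in replicate 2, lower on the knockout array each time. The ratios of knockout to control were 0.817 and 0.713 for the first and 0.807 and 0.758 for the second. On the log2 scale 1456010_x_at differed by -0.27 and -0.46, with a mean of -0.37 ± 0.13 (SD, n = 2 pairs), and 1423146_at by -0.29 and -0.34, with a mean of -0.32 ± 0.038. Both probe sets were thus over 0.25 lower in both replicate numbers, a limit set after the values were seen, which 1.46% of the probe sets tested passed. With quantile normalization the replicate 1 value of 1456010_x_at was -0.246, short of that limit. The difference of 1456010_x_at lay at the 23.8 percentile of all probe sets tested in replicate 1 and at the 3.54 percentile in replicate 2. In limma's fit the estimate for 1456010_x_at was -0.37 ± 1.46 (SE; adjusted p = 1), and with the replicate block -0.37 ± 0.17 (SE; adjusted p = 0.9999). The SE without the block was set by the trend of variance with brightness over all probe sets tested, not by this probe set's own spread. That trend holds the difference between the scales. In Affymetrix naming, _x_at marks a probe set with probes that can match other transcripts, which the name of 1423146_at does not.

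The promoter of Hes5 is shown because binding of RBPJ, through which Notch acts on its targets, is read from short motifs. The RefSeq promoter table (build GRCm38.p6) held 8 of the 10 members, with 9 promoters, and Hes1 and Hey1 had no entry. Each was searched for the RBPJ core TGGGAA on both strands over the 250 bases before the annotated start. The sequence of Hes5 is chr4:154960673-154960922, plus strand, and that of Jag1, shown beside it as the member higher in both replicate numbers, is chr2:137116521-137116770, minus strand. Both are written 5′ to 3′ along the gene, and capitals mark matches to the core, TGGGAA or its reverse complement TTCCCA.
Hes5: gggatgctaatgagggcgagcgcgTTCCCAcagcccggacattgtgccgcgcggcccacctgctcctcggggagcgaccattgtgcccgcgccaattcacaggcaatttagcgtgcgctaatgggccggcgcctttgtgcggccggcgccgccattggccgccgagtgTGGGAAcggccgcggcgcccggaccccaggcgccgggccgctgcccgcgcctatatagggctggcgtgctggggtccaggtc
Jag1: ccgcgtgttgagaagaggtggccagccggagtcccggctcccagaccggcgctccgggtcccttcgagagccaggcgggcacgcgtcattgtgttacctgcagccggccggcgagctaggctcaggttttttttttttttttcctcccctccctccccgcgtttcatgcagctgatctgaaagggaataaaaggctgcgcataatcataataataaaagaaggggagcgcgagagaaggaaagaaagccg
Hes5 held 2 matches, 1 on each strand, with the nearer one 77 to 82 bases before the start and the farther one 221 to 226. The other 8 member promoters, that of Jag1 included, held 0 matches in this window. Of 32851 promoters of the same length, 21.6% held at least 1 match and 2.77% held 2 or more. The N-box CACNAG, a sequence that Hes proteins bind, was searched on both strands and had 2 matches in the promoters of Notch3 and Nrarp, 1 in those of Notch1 and Notch2, and 0 in those of Hes5, Jag1, Dll1 and Dll3, against 36.7% of all promoters with at least 1. The TATA box TATAAA, searched on the gene's strand, was in 0 of the 9 member promoters and in 7.59% of all. A match is a run of letters and was not measured as a bound site here.

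Hes1, the repressor that acts beside Hes5 in progenitors, was represented by 1 probe set, 1418102_at. Its signal was 325 (control) and 174 (knockout) in replicate 1, and 84.8 and 76.8 in replicate 2. The knockout array was lower in both, by a ratio of 0.534 in replicate 1 and 0.906 in replicate 2. The log2 differences were -0.79 and -0.10, at the 4.77 and 25.4 percentile of all probe sets tested, with a mean of -0.45 ± 0.49 (SD, n = 2 pairs). The spread between the replicate numbers was thus wider than the mean. In limma's fit the estimate was -0.45 ± 0.94 (SE; adjusted p = 1), and with the block -0.45 ± 0.25 (SE; adjusted p = 0.9999). Differences lower than -0.5 were found in replicate 1 for 10.5% of all genes, and in replicate 2 for 3.49%. On the replicate 2 arrays the Hes1 signal was close to the array median, at the 55.0 and 50.5 percentile. In replicate 1 the liver genes had a median difference of -2.09, and meningeal genes one of -1.41, in the direction of Hes1. In replicate 2 these medians were 0.040 and 0.095, opposite in sign to Hes1. Genes of radial glia and astrocytes had medians of -0.30 in replicate 1 and 0.043 in replicate 2, and the other lists, which lay on both sides, are given below. The part of these tissues and cells in the Hes1 value was not tested.

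Hey1 and Nrarp, the other targets, were higher on the knockout array in replicate 1 and lower in replicate 2. Hey1, a Hes-related repressor, had signals of 476 (control) and 537 (knockout) in replicate 1 and of 206 and 201 in replicate 2, with log2 differences of 0.16 and -0.031. Nrarp, an ankyrin-repeat protein that Notch induces and that limits Notch signalling in turn, was measured by 2 probe sets. Its brighter one, 1417985_at, read 1052 and 1147 in replicate 1 and 404 and 367 in replicate 2. The other, 1417986_at, read 493 and 663 in replicate 1 and 339 and 295 in replicate 2. Both Nrarp probe sets thus differed in sign between the replicate numbers, at log2 0.12 and -0.13 for the first and 0.41 and -0.18 for the second. All 4 target genes were lower on the knockout array in replicate 2, where the median of their brightest probe sets was -0.12. In replicate 1 they were 2 lower and 2 higher, with a median of -0.077.

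Among the ligands, Jag1 was higher and both Delta-like genes were lower in both replicate numbers. Jag1, a Jagged ligand that activates Notch on adjoining cells, had 3 probe sets. The brightest, 1434070_at, read 378 in the control and 486 in the knockout of replicate 1, and 135 and 167 in replicate 2. The knockout array was the higher one each time, with ratios of 1.29 and 1.24. The log2 differences were 0.34 and 0.26, at the 84.2 and 91.8 percentile, with a mean of 0.30 ± 0.056 (SD, n = 2 pairs). Of all probe sets tested, 1.21% were over 0.25 higher in both replicate numbers. The replicate 2 value fell short of that limit with a pseudocount at the 40th percentile (0.22) and with centring on the 75th percentile (0.24). In limma's fit the estimate was 0.30 ± 1.23 (SE; adjusted p = 1), and with the block 0.30 ± 0.18 (SE; adjusted p = 0.9999). The other Jag1 probe sets did not share its sign in replicate 1. Probe set 1421106_at read 95.0 and 89.5 there and 49.2 and 62.9 in replicate 2, and 1421105_at read 97.7 and 79.4 there and 51.4 and 59.1 in replicate 2. Both were below the median signal on all 4 arrays, and all 3 probe sets were higher on the knockout array of replicate 2.

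Dll1, a Delta ligand of newborn neurons and committed progenitors, read 593 in the control and 523 in the knockout of replicate 1, and 296 and 285 in replicate 2. Dll3, a divergent Delta protein that acts inside the cell and does not activate Notch on neighbours, read 414 and 348 in replicate 1 and 153 and 135 in replicate 2. Both had 1 probe set, and each knockout signal was below its control. The log2 differences were -0.17 and -0.047 for Dll1, with a mean of -0.11 ± 0.088 (SD, n = 2 pairs). They were -0.23 and -0.15 for Dll3, with a mean of -0.19 ± 0.055. The ratios of knockout to control were 0.881 and 0.964 for Dll1 and 0.842 and 0.880 for Dll3. Among all probe sets tested these differences lay at the 32.5 and 34.5 percentile for Dll1 and at the 27.3 and 19.3 percentile for Dll3.

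The receptors differed little at their brightest probe sets, and 2 of the 3 had opposite signs in the replicate numbers. Notch1, the main receptor of neural progenitors, read 732 in the control and 692 in the knockout of replicate 1 and 319 and 326 in replicate 2 at 1418634_at, with log2 differences of -0.078 and 0.027. Its dimmer probe set 1418633_at read 171 and 200.2 in replicate 1 and 91.7 and 106 in replicate 2, higher on the knockout array each time, at 0.19 and 0.15. The Notch1 probe sets therefore did not share a direction in replicate 1. Notch2, a receptor also present in radial glia and astrocytes, read 687 and 684 in replicate 1 and 408 and 460.4 in replicate 2 at 1455556_at, with differences of -0.0054 and 0.16. Its other probe set, 1451889_at, was the 1 member that did not pass the brightness filter. It read 8.6 and 46.4 in replicate 1 and 32.3 and 38.0 in replicate 2, so its ratio of 5.40 in replicate 1 rests on signals at or below the 30.1 percentile of the arrays.

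Notch3, the receptor of pericytes and vascular smooth muscle, was nearly level at its brighter probe set. Probe set 1421965_s_at read 255 in the control and 239 in the knockout of replicate 1 and 95.2 and 88.4 in replicate 2, with log2 differences of -0.080 and -0.079. Probe set 1421964_at read 58.2 and 116 in replicate 1 and 104 and 94.2 in replicate 2, with differences of 0.71 and -0.11. The higher value in replicate 1 was on arrays where the probe set lay at the 30.9 and 48.0 brightness percentile, and it was not shared by the brighter probe set. In limma's fit the receptors' brightest probe sets were at -0.026 ± 1.45 for Notch1, 0.078 ± 1.49 for Notch2 and -0.080 ± 0.98 for Notch3 (SE; adjusted p = 1 each). With the block these estimates had SEs of 0.17, 0.17 and 0.20 (adjusted p = 0.9999 each).

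**Figure D2:**
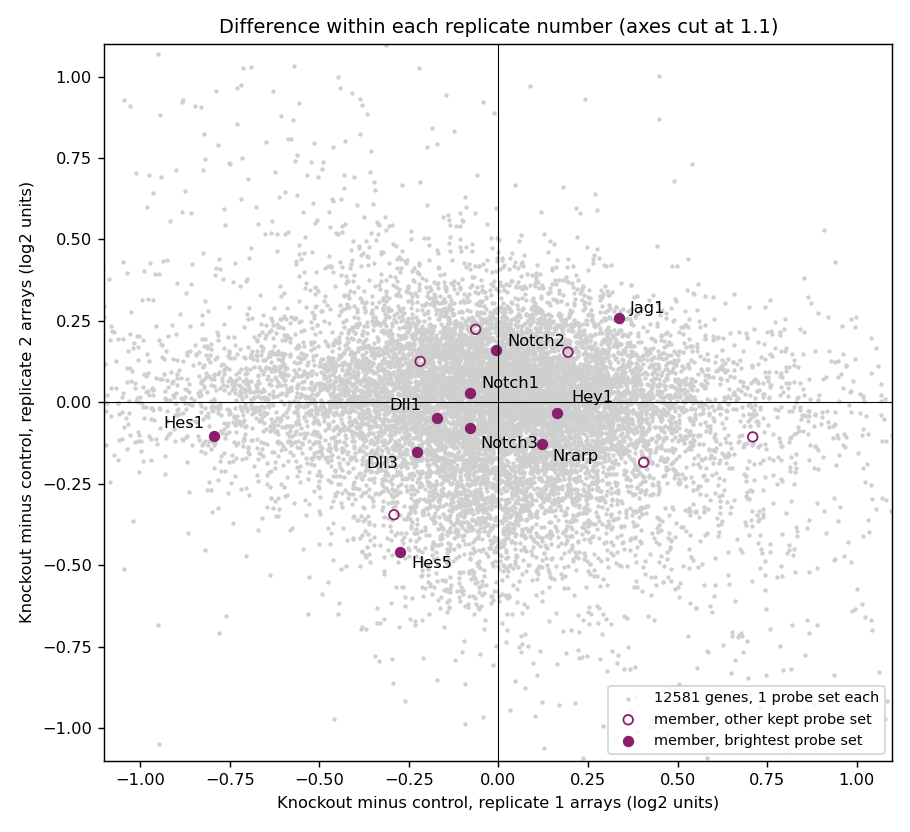
Knockout minus control on the log2 scale for the replicate 1 arrays (horizontal) and the replicate 2 arrays (vertical), with 12581 genes in grey, the brightest probe set of each member filled and the other kept member probe sets open; genes beyond 1.1 on either axis are not drawn. Hes5 (-0.27, -0.46) and Jag1 (0.34, 0.26) lie off both axes in opposite quadrants, Hes1 lies far along the horizontal axis only, and the filled points of the receptors lie near the origin, while an open point of Notch3 lies at 0.71 and -0.11.

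The rest of the pathway was taken as a list of 55 genes, of which 44 had a probe set above the filter. Limma called 0 of the 44 in either direction, with or without the block. Of these genes 11 were lower on the knockout array in both replicate numbers, 10 were higher in both and 23 had opposite signs, and their median was -0.024 and -0.011. These shares are close to those over all genes given above. No gene of the list was past log2 0.5 in both replicate numbers, in the same direction (0.0795% of all genes) or in opposite directions (1.74%). RBPJ, the DNA-binding partner of the cleaved receptor (Rbpj), was at -0.058 and 0.078, from signals of 608 and 583 in replicate 1 and 384 and 407 in replicate 2. The coactivator gene Maml1 was at -0.66 and 0.088, and the acetyltransferase gene Ep300 at 0.016 and 0.0012.

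Apart from Rbpj, the pathway genes named here and below were chosen after their values were seen. Of the 44, 3 were over 0.25 higher on the knockout array in both replicate numbers (Mib1, Aph1b and Dtx4). Of all probe sets tested 1.21% were, a share that counts probe sets and not 1 probe set a gene. Dtx4 only just passed this limit in replicate 1, at 0.2508. Mib1, the ubiquitin ligase that lets ligands be endocytosed and so become active, read 1771 in the control and 2292 in the knockout of replicate 1 and 599 and 732 in replicate 2, at 0.37 and 0.28. Aph1b, a subunit of the gamma-secretase that cleaves Notch, read 1425 and 1778 in replicate 1 and 406 and 556 in replicate 2, at 0.31 and 0.42. Dtx4, a Deltex ubiquitin ligase, read 2731 and 3255 in replicate 1 and 358 and 455 in replicate 2, at 0.25 and 0.32. The other measured parts of the secretase lay on both sides: Ncstn was at 0.38 and 0.028, Psen2 at -0.096 and -0.087, Aph1a at -0.11 and -0.11, and Psenen at 0.042 and -0.40. Numbl, an adaptor that opposes Notch, was at -0.19 and -0.21, and its relative Numb at -0.14 and 0.25.

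The widest replicate 1 differences of the list, in opposite directions, were those of Notch4 and Hes7. Notch4, an endothelial receptor, read 133 and 441 in replicate 1 and 53.2 and 43.7 in replicate 2, at 1.51 and -0.17. Dll4, the ligand of arterial and tip cells, read 211 and 95.2 in replicate 1 and 50.1 and 59.7 in replicate 2, at -0.93 and 0.16. Notch4 and Dll4 were below the median signal on the replicate 2 arrays. Hes7, a Hes gene of the segmentation clock, was at -0.94 and 0.073. Among the other Hes and Hey genes, Hes6, which counteracts Hes1, was at -0.36 and -0.027, Hey2 at 0.52 and -0.12 and Heyl at -0.79 and 0.088. The neurogenic bHLH genes on the list were at -0.56 and 0.31 for Neurog2 and at 0.26 and -0.43 for Neurod1, opposite to each other in both replicate numbers.

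**Figure D3:**
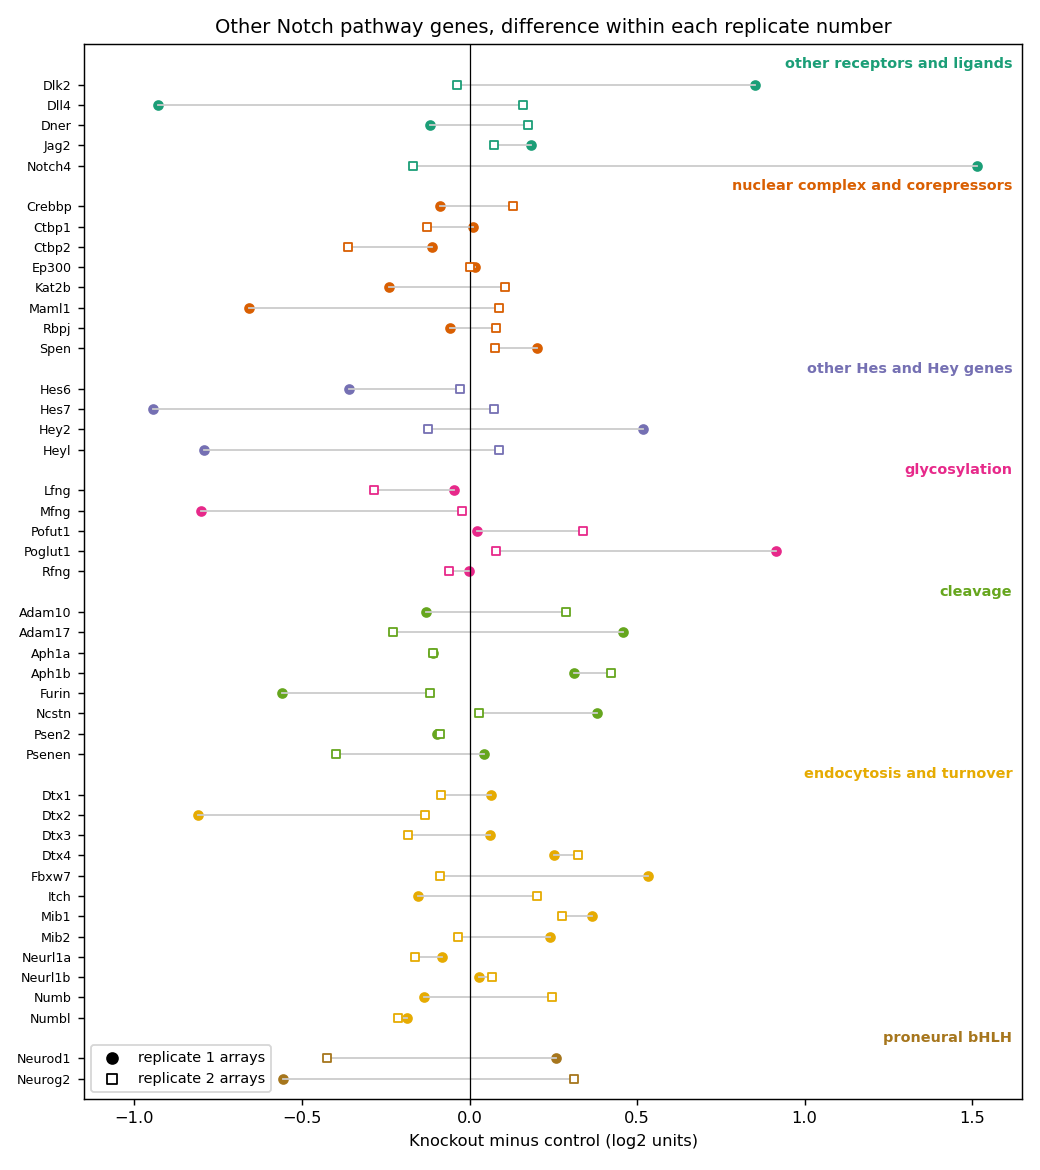
Knockout minus control on the log2 scale for the 44 other pathway genes above the filter, grouped by role and coloured by group, with filled circles for the replicate 1 and open squares for the replicate 2 arrays. For 24 of the 44 genes the circle lies farther from 0 than the square, as for Notch4 (1.51 and -0.17), while Mib1, Aph1b and Dtx4 have both points on the higher side.

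Markers of the cells that use Notch were measured on the same arrays, and their part in the member values was not tested. Of 12 genes of radial glia and astrocytes, which express Hes1 and Hes5, 2 were lower in both replicate numbers, 0 higher in both and 10 had opposite signs, with medians of -0.30 and 0.043. Their summed signal was 60079 in the control and 54725 in the knockout of replicate 1, and 16535 and 16562 in replicate 2. Most of this sum in replicate 1 came from Fabp7, a fatty acid binding protein of radial glia, with 31278 and 31833, and its replicate 2 signals were 7904 and 7806. The 2 lower in both were Sox2, a progenitor transcription factor, at -0.42 and -0.28, and Gfap, at -0.10 and -0.41. Among the 10 with opposite signs, Pax6 was at -1.13 and 0.47 and Aqp4 at 1.46 and -1.42. Of 5 cell cycle genes, 5 were lower in replicate 1 and 4 were higher in replicate 2, with medians of -0.36 and 0.17.

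Vessel and other tissue markers differed between the replicate numbers too. Endothelial genes (8 measured) had medians of -0.27 and -0.0054, with summed signals of 3683 and 3767 in replicate 1 and 1148 and 1098 in replicate 2. Genes of pericytes and smooth muscle, the cells of Notch3, had medians of -0.45 and -0.14 over 5 measured genes, with summed signals of 3120 and 3055 in replicate 1 and 859 and 715 in replicate 2. Of 5 choroid plexus genes 4 were higher on the knockout array in both replicate numbers, with medians of 0.85 and 0.43 and summed signals of 1076 and 1829 in replicate 1 and 310.1 and 381 in replicate 2, in the direction of Jag1. Meningeal genes had medians of -1.41 and 0.095, with summed signals of 4957 and 1655 in replicate 1 and 587 and 1136 in replicate 2. Neuronal genes (6 measured) had medians of 0.13 and 0.24, with summed signals of 55463 and 60869 in replicate 1 and 14802 and 16352 in replicate 2. The lowest replicate 1 difference of all 12581 genes was that of the Y-linked gene Eif2s3y, at -2.96, against 0.209 in replicate 2. The sample titles do not give the sex of the pups, and its part in the member values was not tested.

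**Figure D4:**
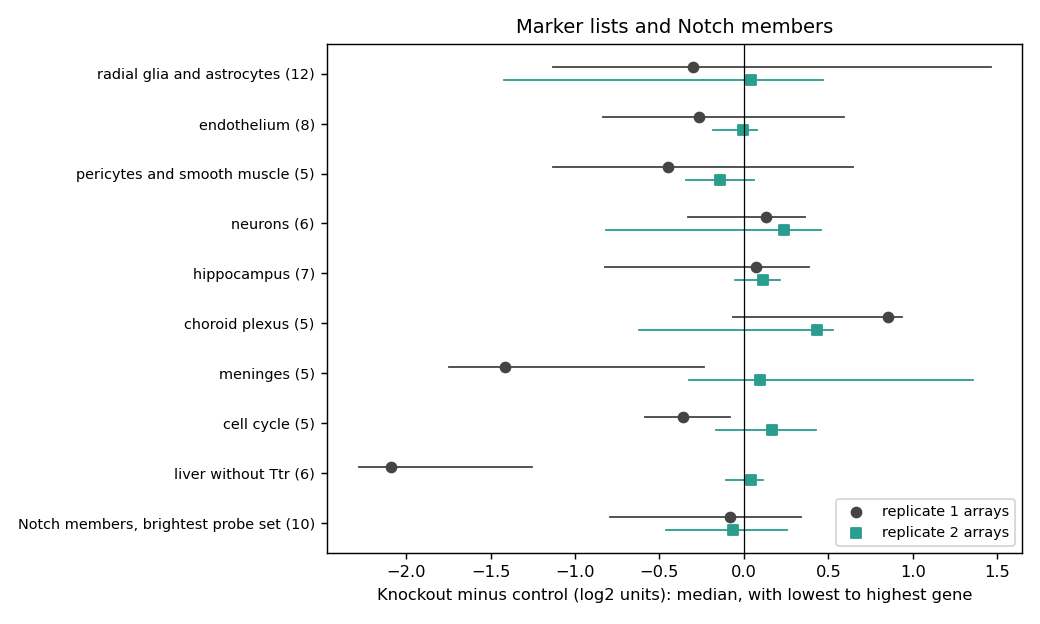
Median difference (points) with the lowest and highest gene (lines) of each marker list on the log2 scale, for the replicate 1 (grey circles) and replicate 2 (green squares) arrays, with the number of measured genes in brackets and the Notch members in the bottom row. The liver median is -2.09 in replicate 1 and 0.040 in replicate 2, while the Notch members have medians of -0.079 and -0.063.

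Genes with differences like those of Notch1, Hes1 and Hes5 were looked for; the other members were not compared in this way. The likeness was the distance between the pairs of differences, over 12580 other genes and both replicate numbers. Within 0.1 of Notch1 lay 1048 genes, the nearest being Mfsd1, Vwa5a and Armc10, at distances of 0.0029, 0.0036 and 0.0036. Within 0.1 of Hes1 lay 87 genes, the nearest being Vtn, Mst1r and S100a13, at 0.020, 0.022 and 0.023. Within 0.1 of Hes5 lay 69 genes, the nearest being Smim26, Id4 and Cox19, at 0.024, 0.024 and 0.025. Id4, an inhibitor of basic helix-loop-helix factors in neural progenitors, was at -0.25 and -0.45, beside -0.27 and -0.46 for Hes5. The likeness was not particular to progenitor genes. Smim26 was at -0.26 and -0.48, Cox19 at -0.25 and -0.45, and the ribosomal protein gene Rps26 at -0.25 and -0.47.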

How the data were processed

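Hippocampal RNA was measured on 4 Affymetrix arrays, and the labels do not say whether each array had its own pup or pool. The values the authors deposited are linear signal intensities from MAS5, per the submitters' processing notes. The version, scaling target and background setting are not given in the sources used here. The platform annotation gave the names: 34945 probe sets had 1 symbol, 932 had several and 9160 had none. Signals were kept on the authors' scaling and transformed as log2(signal + 32.56), the pseudocount being the 20th percentile of all values, so fold changes of dim probe sets are understated. The 27022 probe sets whose mean exceeded the 40th percentile were tested with limma 3.58.1 in R 4.3.3 (lmFit, eBayes with a mean-variance trend), knockout minus control on 4 arrays without covariates, with Benjamini-Hochberg adjustment and a threshold of 0.05. Both fits were run on simulated data with known changes. Calling those changes was required only of the fit with the block, so what the main fit can call was not shown. The replicate number coincides with the scale of the values. Across probe sets, the deviations from the group mean correlated at 0.837 between arrays of one number, and the labels do not say that the number marks a litter or day, so the block was an alternative and values are given within each number. Residual degrees of freedom were 2, and 1 with the block. Prior degrees of freedom were infinite without the block and 5.98 with it. Without the block each variance was therefore that of the trend, and a probe set's own spread did not enter its p-value. The brightest probe set of a gene stood for it in counts, and the limit of 0.25 was set after the values were seen. All member probe sets were named; pathway genes were to be named past log2 0.5 in both replicate numbers, which none was, and those named were otherwise chosen after their values were seen. The members and lists were chosen with earlier results of these data known. The alternatives were 3 other scalings, 2 other pseudocount settings, 2 other filters, 1 probe set a gene, 2 other eBayes settings, the block and leaving out each array. Promoters came from RefSeq (GRCm38.p6). Probe positions and the build of the arrays were not used here.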

Additional observations from a re-analysis of the deposited data

How the results depend on the processing

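Over 15 alternative fits, 0 of 149 member values passed limma's threshold (lowest adjusted p 0.9986), and 0 probe sets were called in any of them. Only the fit with the block took account of the replicate number. What the fits without it can call was not shown, so their lack of calls says little about the members. With the replicate number as a block the estimates were the same, at -0.37 for Hes5, -0.45 for Hes1 and 0.30 for Jag1, with an adjusted p of 0.9999 each, and the block changed no call. Within replicate numbers, 0 of 100 values of the members' brightest probe sets changed sign under the 5 other scalings and pseudocounts, while 13 differed from the reported value by more than the SD of the member's 2 pair differences. The limit of 0.25 was not met by Hes5 in replicate 1 with quantile normalization (-0.246), nor by Jag1 in replicate 2 with a pseudocount at the 40th percentile (0.218) or centring on the 75th percentile (0.240). Scaled to one trimmed mean, the fitted difference of Nrarp turned from -0.0044 to 0.00044. Leaving out 1 array sets scales against each other, and the fitted difference then spanned 0 for 9 of 10 members: from -0.59 to 0.53 for Notch1, -0.28 to 0.43 for Notch2, -0.66 to 0.51 for Notch3, -0.57 to 0.36 for Dll1, -0.82 to 0.44 for Dll3, -0.39 to 0.98 for Jag1, -1.25 to 0.36 for Hes1, -0.58 to 0.71 for Hey1 and -0.79 to 0.78 for Nrarp. For Hes5 it ran from -0.44 to -0.29, at 1456010_x_at. The signals of that probe set were of like size in both replicate numbers, with ratios of replicate 1 to replicate 2 of 0.897 (control) and 1.03 (knockout). Leaving out an array therefore set no wide gap against it, and the narrow range is no sign of a firmer difference. The range was not taken for 1423146_at, where these ratios were 2.52 and 2.68. On the replicate 2 arrays alone, an alternative chosen after seeing the data because replicate 1 carried liver transcripts, 7 of 10 members were lower and 3 higher. The replicate 1 arrays alone gave 7 and 3 as well, and 5 and 1 were so in both replicate numbers. Of all 12581 genes, 6307 were lower in replicate 2. Ratios of dim probe sets, such as 1451889_at of Notch2, rest on signals near the low end of the arrays.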

Other observations

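The 2 Hes5 probe sets had like ratios of knockout to control but unlike ratios between the replicate numbers. For 1456010_x_at the replicate 1 signal was 0.897 times that of replicate 2 on the control arrays and 1.03 times on the knockout arrays, whereas 1423146_at gave 2.52 and 2.68. The trimmed mean of the arrays was 3.18 times higher in replicate 1. Among the other members' brightest probe sets the same ratio ran from 1.49 for Notch2 on the knockout arrays to 3.83 for Hes1 on the control arrays.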
